A study of Mus musculus with 31 samples.

Results

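The 9 genes described here are the keratins of simple and ductal epithelium *Krt7*, *Krt8*, *Krt18* and *Krt19*, the pancreatic transcription factors *Sox9*, *Gata6* and *Pdx1*, the membrane mucin *Muc1* and the tight junction claudin *Cldn4*. Their rows were taken by symbol, with no threshold on any value, and each was found once in each of the 3 gene count tables, as 9 of 60172 gene identifiers in all. The cells were Panc02, an established mouse pancreatic adenocarcinoma line, and the labels call every sample pancreatic cancer cells. RNA was sequenced from 31 samples in 11 groups, and the tables were scaled separately, so groups were tested only within a table.

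In the first table, WT Panc02 spheroids in Matrigel received control medium with 6.5% fetal bovine serum (Ctrl), medium conditioned by unstimulated bone marrow macrophages (M0-CM) or medium conditioned by macrophages given IFNγ and then lipopolysaccharide (M1-CM), with n = 3 in each group. The second table held WT and *Cxcl5*-/- cells, each as a flat culture (2D) and as Matrigel spheroids (3D), with n = 3 in each of the 4 groups. In the third, called rescue here, all cells were grown in 3D: WT (n = 2), *Cxcl5*-/- (n = 2), *Cxcl5*-/- cells with a stabilized mutant *Hif1a* (*Hif1a*OE *Cxcl5*-/-, n = 3) and *Cxcl5*-/- cells with overexpressed *Myc* (*Myc*OE *Cxcl5*-/-, n = 3). *Cxcl5*, which encodes a neutrophil-attracting chemokine, was disrupted with a lentiviral CRISPR vector, and both overexpressed genes came from a retroviral vector; puromycin was the selection in each case, and no single-cell cloning is described. The study's methods state biological replicates for its experiments in general, but the labels do not tie each library to a separate culture, so p-values measure only the spread between these samples, part of which may be technical.

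Keratins are the intermediate filament proteins of epithelial cells and assemble as pairs of a type I and a type II chain. KRT8 (type II) and KRT18 (type I) are the pair of simple epithelium, including the acinar and duct cells of the pancreas, while KRT7 (type II) and KRT19 (type I) are typical of ducts and of ductal adenocarcinoma. SOX9 maintains duct and progenitor cells, PDX1 specifies the pancreas and later beta cells, and GATA6 acts in pancreas formation and marks the classical subtype of pancreatic cancer. MUC1 coats the apical face of gland cells and CLDN4 seals their tight junctions.

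Panc02 expressed part of this set. A gene was taken as expressed where every sample of a group reached 1 CPM (CPM, counts-per-million of the TMM-scaled library), and as at the floor where no sample of a group passed 3 counts. *Krt8*, *Krt18*, *Sox9* and *Pdx1* were expressed in 11 of 11 groups. *Krt7* was expressed in 7 groups, namely all of the 2D and 3D table and of the rescue table other than 3D WT, and *Krt19* in 2, 3D WT and rescue WT. *Muc1* was expressed in M0-CM, 3D WT, the libraries labelled 3D *Cxcl5*-/-, rescue *Cxcl5*-/-, *Hif1a*OE *Cxcl5*-/- and *Myc*OE *Cxcl5*-/-, and in no other group. Its level was low throughout, with group means between 0.279 CPM in 2D *Cxcl5*-/- and 1.83 CPM in *Hif1a*OE *Cxcl5*-/-. *Cldn4* and *Gata6* were expressed in 0 groups: *Cldn4* had 0 counts in 23 of 31 samples and at most 14, and *Gata6* had 0 counts in 28 and at most 26.

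**Figure D1:**
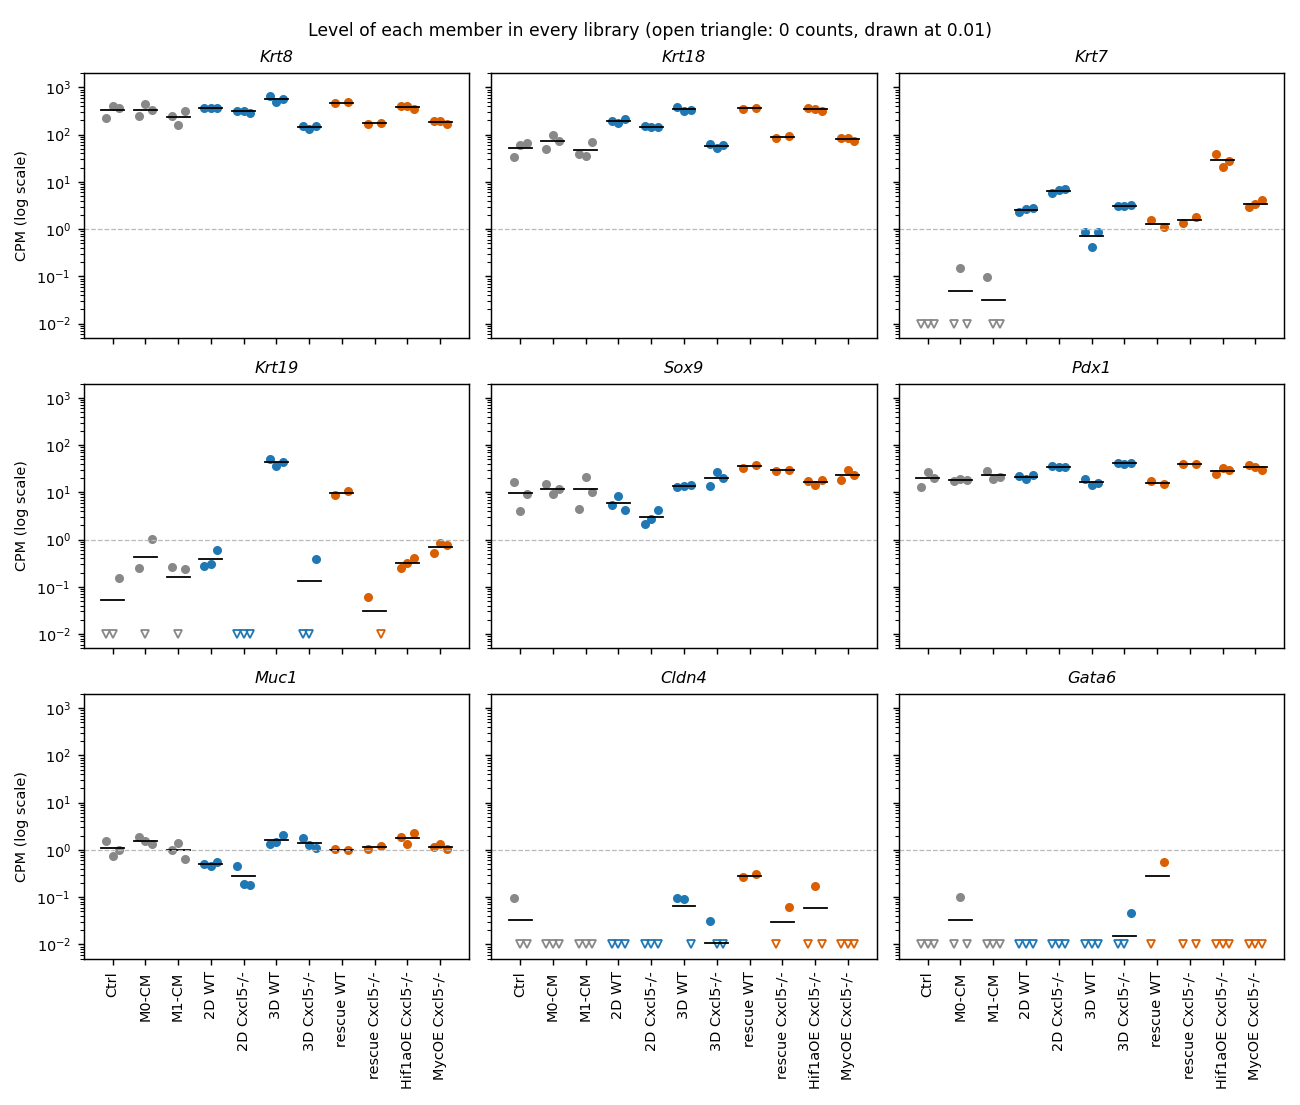
Level of the 9 genes in each of the 31 libraries, as CPM on a log axis with 1 point per library, a black bar at the mean of each group and a dashed line at 1 CPM; gray marks the conditioned-medium table, blue the 2D and 3D table and orange the rescue table. *Krt8* lies at 134 CPM or more in every library, *Krt19* reaches 36.5 to 50.3 CPM in 3D WT and lies under 1.1 CPM outside 3D WT and rescue WT, and *Gata6* and *Cldn4* stay under 1 CPM.

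Per kilobase of annotated exon, which allows genes to be compared, the keratin pair stood far above the other members. In 2D WT the level was 188 ± 4.08 CPM per kb for *Krt8* and 136 ± 12.8 for *Krt18* (SD, n = 3). *Pdx1* was next at 9.94 ± 0.941, then *Sox9* at 1.44 ± 0.493 and *Krt7* at 0.365 ± 0.035. In 3D WT *Krt19* came next after the pair, at 23.6 ± 3.74 CPM per kb, with *Krt8* at 291 ± 41.8 and *Krt18* at 241 ± 23.8.

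*Krt8* (GRCm38 chr15:101996698-102004482, minus strand) and *Krt18* (chr15:102028180-102032027, plus strand) are neighbours, 23.7 kb apart and transcribed away from each other, and *Krt7* (chr15:101411043-101430313, plus strand) lies on the same chromosome. *Krt19* is at chr11:100140810-100148665 on the minus strand. Of the 9 genes, 6 had an entry in the RefSeq promoter table (GRCm38.p6). The promoters of these 3 keratins are shown because *Krt8* and *Krt18* mostly rose and fell together in the comparisons that follow. *Krt7* took another course in some of these comparisons but moved with the pair in others. For instance, it fell with the pair from flat culture to spheroids of *Cxcl5*-/- cells, and rose with it when *Hif1a* was overexpressed. Each stretch comes from the 250 bases before the RefSeq start and ends before the first of them annotated as untranslated exon of the gene. The stretches are chr15:102004483-102004592 (minus strand) for *Krt8*, chr15:102027966-102028179 for *Krt18* and chr15:101412153-101412401 for *Krt7*. That of *Krt7* lies inside the annotated gene, which starts at chr15:101411043, so it is not the sequence ahead of the whole gene. Capitals mark GC boxes.
Krt8: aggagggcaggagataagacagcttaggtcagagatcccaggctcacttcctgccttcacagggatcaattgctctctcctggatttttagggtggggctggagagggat
Krt18: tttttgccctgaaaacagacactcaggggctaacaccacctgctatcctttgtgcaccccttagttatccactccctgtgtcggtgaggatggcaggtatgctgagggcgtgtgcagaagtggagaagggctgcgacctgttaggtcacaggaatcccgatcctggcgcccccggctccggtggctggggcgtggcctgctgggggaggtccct
Krt7: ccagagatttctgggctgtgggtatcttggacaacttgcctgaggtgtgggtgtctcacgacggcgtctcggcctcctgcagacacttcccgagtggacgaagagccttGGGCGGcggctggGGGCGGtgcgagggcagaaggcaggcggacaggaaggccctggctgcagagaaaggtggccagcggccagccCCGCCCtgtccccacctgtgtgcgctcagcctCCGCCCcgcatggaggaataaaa

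Both strands were searched for the TATA box (TATAAA), the GC box (GGGCGG), the AP-1 site (TGANTCA), the E-box bound by MYC (CACGTG) and the core of the hypoxia response element (ACGTG, which overlaps CACGTG). The 249 bases of *Krt7* held 4 GC boxes, which 32.6% of 32851 RefSeq promoters hold at least once in a stretch of this length and place, and their GC content was 65.9%. The 110 bases of *Krt8* (GC 53.6%) and the 214 bases of *Krt18* (GC 60.7%) held 0 matches to any of the motifs. In the *Krt7* stretch the core of the hypoxia response element, present in 16.5% of promoters, and the E-box, present in 6.0%, had 0 matches. These are matches of letters in short windows, and say nothing about binding.

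Some general epithelial markers outside this list were close to absent, while other duct and junction genes were present. *Cdh1*, which encodes E-cadherin, had 0 counts in 26 of 31 libraries and *Epcam* in 29; both are general markers of epithelial cells. The basal keratins *Krt5* and *Krt14* had at most 10 counts, and *Krt17* had 0 in every library. *Vim*, the intermediate filament gene of mesenchymal cells, was in contrast abundant, with group means from 556 CPM in rescue *Cxcl5*-/- to 3809 CPM in 3D WT. Of 50 further keratins, *Krt10* and *Krt80* were expressed in 11 groups and *Krt222* in 1. Of 25 other genes of duct and duct progenitor cells, 5 to 9 were expressed in each of the 11 groups, and of 26 epithelial junction and identity genes 2 to 6. Set beside the label of pancreatic cancer cells, *Krt8*, *Krt18*, *Pdx1* and *Sox9* were thus present in every group, with *Cdh1* and *Epcam* at or near 0.

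**Figure D2:**
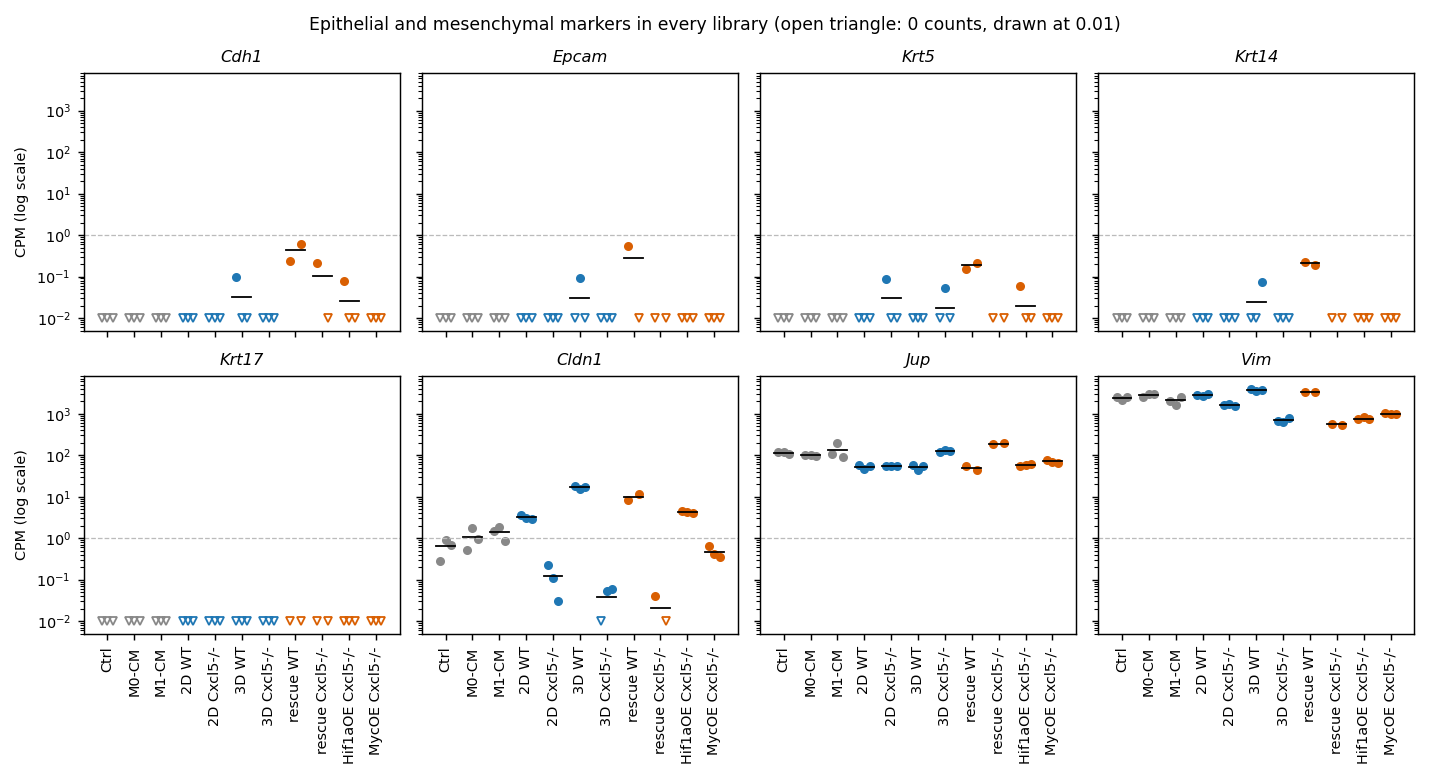
Epithelial markers and *Vim* in each library, as CPM on a log axis with 1 point per library and a black bar at the group mean; colors are those of the plot of member levels. *Cdh1*, *Epcam*, *Krt5*, *Krt14* and *Krt17* lie at 0 or under 1 CPM in each library, *Cldn1* is highest in 3D WT at 15.0 to 18.3 CPM, and *Vim* is highest in 3D WT and rescue WT.

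The libraries held 41542533 to 78498230 counts. The transcript of the targeted gene gave a poor check of the knockouts. *Cxcl5* averaged 34.3 CPM in 2D *Cxcl5*-/- and 47.3 in its WT, and 38.4 in rescue *Cxcl5*-/- and 66.0 in its WT. In the reverse direction, it averaged 50.6 CPM in the libraries labelled 3D *Cxcl5*-/- and 27.0 in 3D WT. The 2D difference did not pass (adjusted p = 0.0705, edgeR) and the other 2 did. The study checked the knockout by immunoblot for CXCL5 protein, which these RNA levels do not measure. The groups are called by their labels throughout. *Hif1a* and *Myc* were lower in *Cxcl5*-/- than in WT spheroids of both tables, *Hif1a* at 160 against 369 CPM in the libraries labelled 3D *Cxcl5*-/- and 139 against 314 in the rescue table, and *Myc* at 10.4 against 35 and 21.1 against 47.7 CPM. *Myc* was at 490 CPM in *Myc*OE *Cxcl5*-/- against 21.1 in rescue *Cxcl5*-/-, and *Hif1a* at 266 CPM in *Hif1a*OE *Cxcl5*-/- and at 258 in *Myc*OE *Cxcl5*-/- against 139. Rescue WT stood apart at low counts: of the 50 further keratins, 8 were at the floor there and 46 in rescue *Cxcl5*-/-, and the 5 endothelial markers summed to 2.93 to 3.85 CPM against 0.325 to 0.394. Counts of *Cldn4* (12 and 14), *Gata6* (0 and 26), *Cdh1* (11 and 28), *Krt5* (7 and 10) and *Krt14* (10 and 9) in the rescue WT libraries were of the same small size, and the part of that background in the *Cldn4* and *Gata6* counts was not tested.

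Moving WT cells from 2D to 3D culture changed each of the 7 members tested. By edgeR's quasi-likelihood test with Benjamini-Hochberg adjustment over all genes tested, at an adjusted p under 0.05, 5 members rose and 2 fell in 3D WT, where 44.3% of 21367 genes changed (22.2% up, 22.0% down). The median log2 fold change was 0.83 over these members and 0.00 over all genes. *Krt19* made the largest step of them, from 0.270, 0.302 and 0.598 CPM in 2D WT to 50.3, 36.5 and 44.4 CPM in 3D WT. The groups were far apart, their log2 levels differing by 6.77 ± 0.58 (SE; adjusted p = 2.14e-06, edgeR) and a ratio of mean CPM of 112. *Krt8* went from 374, 360 and 373 CPM to 648, 485 and 574 (log2 fold change 0.63 ± 0.10, adjusted p = 0.000198, edgeR), and *Krt18* from 199, 176 and 212 to 384, 317 and 339 (0.83 ± 0.10, adjusted p = 1.3e-05, edgeR). Neither of the pair overlapped between 2D and 3D. *Krt7*, the type II keratin of ducts, moved against the other 3 keratins and fell from 2.29, 2.68 and 2.75 CPM to 0.853, 0.420 and 0.885 (log2 fold change -1.82 ± 0.23, edgeR).

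Among the non-keratin members, *Sox9* rose from 5.97 ± 2.04 to 13.6 ± 0.870 CPM (SD, n = 3) and *Muc1* from 0.506 ± 0.0481 to 1.65 ± 0.397 CPM in the WT cells, with no overlap in either. *Pdx1* fell from 21.5 ± 2.03 to 16.4 ± 2.79 CPM, by a log2 value of -0.39 ± 0.11 (adjusted p = 0.012, edgeR), and its groups overlapped. Its call was lost with only the groups compared in the fit (adjusted p = 0.0579) and without 2D WT replicate 1 or 3 or 3D WT replicate 2 or 3, with adjusted p from 0.0566 to 0.0784. With the libraries labelled 3D *Cxcl5*-/- left out of the fit, 7 of 7 members still passed.

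The same step in *Cxcl5*-/- cells took the keratin pair the other way. Of 7 members tested, 3 rose and 3 fell in the libraries labelled 3D *Cxcl5*-/- against 2D *Cxcl5*-/-, where 57.0% of genes changed (28.7% up, 28.2% down). *Krt8* fell from 322, 315 and 292 CPM to 156, 134 and 150, and *Krt18* from 154, 147 and 146 to 63.2, 52.9 and 59.1. These are log2 fold changes of -1.08 ± 0.10 and -1.35 ± 0.10 (adjusted p = 1.05e-06 and 1e-07, edgeR), with no overlap. *Krt7* fell by 1.06 ± 0.21 on the log2 scale, as it had fallen in WT cells. *Sox9* (2.74 ± 0.30) and *Muc1* (2.28 ± 0.37) rose. The third gene that passed upwards, *Krt19*, had 0, 0 and 0 counts in 2D *Cxcl5*-/- and 0, 0 and 26 in the libraries labelled 3D *Cxcl5*-/-: without the third of these the gene is at 0 in both groups, and its call was also lost without any 1 of 8 other libraries of the table. *Pdx1* was at 34.8 ± 0.403 and 41.1 ± 1.16 CPM, which did not overlap but did not pass (adjusted p = 0.0735, edgeR). It passed, as higher in 3D, under 5 alternatives, among them DESeq2's Wald test (adjusted p = 0.0311), library totals (0.39, adjusted p = 0.00982) and only the groups compared (adjusted p = 0.013), and without 3D WT replicate 1 (adjusted p = 0.0424).

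Comparing genotypes in 2D culture, where 7.03% of genes changed (3.86% up, 3.17% down), 2 members were higher and 2 lower in *Cxcl5*-/- than in WT cells. *Pdx1* rose from 22.2, 19.2 and 23.0 CPM to 35.2, 34.5 and 34.5 (log2 fold change 0.70 ± 0.11, adjusted p = 0.00122, edgeR). *Krt7* rose from 2.57 ± 0.247 to 6.56 ± 0.588 CPM (1.35 ± 0.21, adjusted p = 0.00107, edgeR). *Krt18* was lower by a small margin, at 149 ± 4.23 against 195 ± 18.3 CPM, and *Krt19*, with 14, 21 and 43 counts in WT and 0 in each *Cxcl5*-/- library, was at least 8.42-fold lower, taking 3 counts per library as the floor. *Krt8* was at 310 ± 15.5 against 369 ± 7.99 CPM, with no overlap but no call (adjusted p = 0.192, edgeR), and passed only with the groups compared alone in the fit (adjusted p = 0.0298). *Sox9*, at 3.02 ± 1.06 against 5.97 ± 2.04 CPM, also missed the threshold (adjusted p = 0.06, edgeR); it passed by DESeq2 (adjusted p = 0.00951), without a filter, with at least 10 counts in every sample and without the libraries labelled 3D *Cxcl5*-/- (adjusted p from 0.0407 to 0.0484), and without 2D WT replicate 3, 2D *Cxcl5*-/- replicate 3 or replicate 1 or 2 of the libraries labelled 3D *Cxcl5*-/- (0.0263 to 0.0424). The calls of *Krt18* and *Krt19* were not stable to leaving out a library: *Krt18* lost its call without any 1 of 7 libraries (2D WT replicates 1 and 3, each 2D *Cxcl5*-/- replicate, and replicate 3 of 3D WT and of the libraries labelled 3D *Cxcl5*-/-; adjusted p from 0.0574 to 0.171), and *Krt19* without 2D WT replicate 3 or any 2D *Cxcl5*-/- replicate (0.0696 to 0.0899). The count of members called was then 2 without 2D *Cxcl5*-/- replicate 1 or 2. Without a filter *Krt18* lost its call as well (adjusted p = 0.0730, edgeR).

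In 3D culture the keratin pair, *Krt7*, *Krt19* and *Pdx1* differed between genotypes in the directions seen in 2D, where *Krt8* had not passed. By the interaction test that follows, the difference was larger for the pair and for *Pdx1*. Set against 3D WT, 2 of 7 members rose and 3 fell in the libraries that bear the 3D *Cxcl5*-/- label, where 45.0% of genes changed (19.7% up, 25.3% down). *Krt8* went from 569 ± 81.9 to 147 ± 11 CPM (log2 fold change -1.95 ± 0.11, adjusted p = 1.19e-08, edgeR) and *Krt18* from 347 ± 34.2 to 58.4 ± 5.18 CPM (-2.57 ± 0.10, adjusted p = 1.31e-09, edgeR). *Krt19* went from 43.7 ± 6.95 to 0.132 ± 0.229 CPM (-8.29 ± 0.66, adjusted p = 1.42e-06, edgeR), its 2595, 1561 and 2407 counts standing against 0, 0 and 26. None of these 3 overlapped between the groups. Here and elsewhere, overlap describes the named genes only, and the share of all genes without overlap was not counted. *Pdx1* rose from 16.4 ± 2.79 to 41.1 ± 1.16 CPM (1.33 ± 0.11, adjusted p = 6.75e-07, edgeR) and *Krt7* from 0.720 ± 0.260 to 3.15 ± 0.0841 CPM (2.11 ± 0.23, adjusted p = 7.14e-06, edgeR). *Sox9*, at 13.9, 26.8 and 19.9 CPM against 12.9, 13.4 and 14.6, and *Muc1*, at 1.37 ± 0.336 against 1.65 ± 0.397 CPM, did not pass. *Sox9* passed as higher with library totals (0.99 against 0.57, adjusted p = 0.019), with at least 10 counts in every sample (adjusted p = 0.0475), with only the groups compared (adjusted p = 0.0358) and without replicate 1 of the libraries labelled 3D *Cxcl5*-/- (adjusted p = 0.0405).

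The difference between these genotype effects was tested as an interaction, in which 27.2% of genes passed (11.1% with a positive and 16.1% with a negative term). *Krt8* (-1.70 ± 0.14, adjusted p = 3.63e-06, edgeR), *Krt18* (-2.18 ± 0.14, adjusted p = 4.85e-07, edgeR), *Sox9* (1.55 ± 0.40, adjusted p = 0.0114, edgeR) and *Pdx1* (0.63 ± 0.16, adjusted p = 0.0094, edgeR) differed in log2 effect between 3D and 2D. *Krt7* did not pass (0.77 ± 0.31, adjusted p = 0.0829, edgeR), nor did *Krt19* or *Muc1*; *Krt7* passed by DESeq2 (adjusted p = 0.0459), with library totals (1.15, adjusted p = 0.0145) and with at least 10 counts in every sample (adjusted p = 0.0404). The order of levels in this table was thus 3D WT, 2D WT, 2D *Cxcl5*-/- and 3D *Cxcl5*-/- for *Krt8* and *Krt18*, and the reverse for *Pdx1*; of the neighbours tested, 2D WT and 2D *Cxcl5*-/- did not pass for *Krt8*, nor the *Cxcl5*-/- groups for *Pdx1*, except under the alternatives named above.

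**Figure D3:**
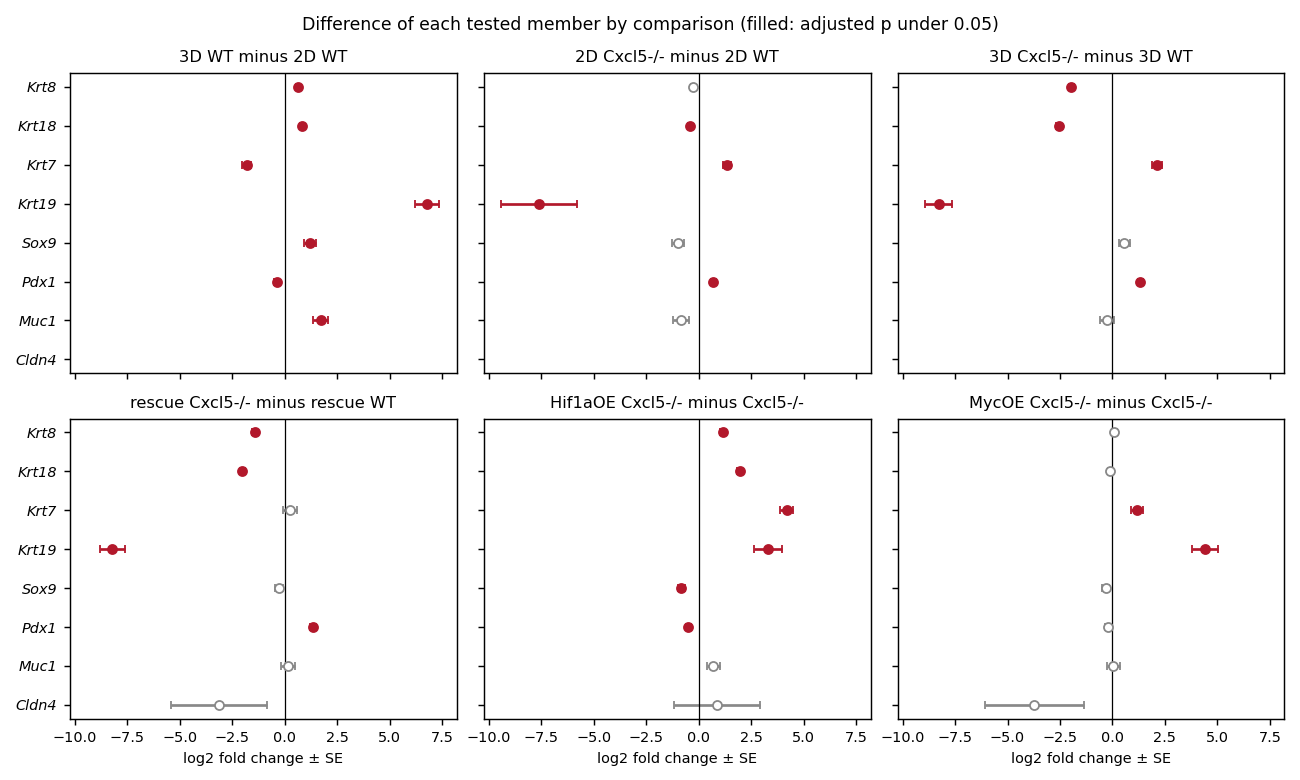
Log2 fold change with its SE for each member tested in 6 comparisons, filled red where the adjusted p of edgeR's quasi-likelihood test was under 0.05 and open gray where it was not; panels in a row or column share control groups in part. *Krt8*, *Krt18* and *Krt19* lie to the right of 0 for 3D WT against 2D WT and to the left for both 3D knockout comparisons, *Pdx1* mirrors them in the knockout comparisons, and *Krt7* has its largest step, 4.20, with *Hif1a*; fitted values of *Krt19* and *Cldn4* against groups at or near 0 counts depend on the prior count.

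The rescue table held a further set of 3D WT and *Cxcl5*-/- libraries, n = 2 each. Of 8 members tested there, 1 was higher and 3 lower in *Cxcl5*-/- than in WT, where 41.9% of 28730 genes changed (17.6% up, 24.3% down). *Krt8* was at 462 and 481 CPM in WT and at 172 and 177 in *Cxcl5*-/- (log2 fold change -1.44 ± 0.11, adjusted p = 3.36e-06, edgeR). *Krt18* was at 349 and 372 against 84.9 and 93.0 CPM (-2.02 ± 0.12, adjusted p = 3.91e-07, edgeR), and *Pdx1* at 17.0 and 14.8 against 39.9 and 40.3 CPM (1.33 ± 0.15, adjusted p = 4.99e-05, edgeR). *Krt19* had 401 and 501 counts in WT and 3 and 0 in *Cxcl5*-/-, a ratio of 321 whose exact 95% interval, which covers counting error only, ran from 109 to 1559. *Krt7*, higher in the libraries labelled 3D *Cxcl5*-/- of the other table, was at 1.32 ± 0.323 and 1.57 ± 0.339 CPM here and did not pass (adjusted p = 0.561, edgeR). *Sox9*, *Muc1* and *Cldn4* did not pass either, although with only the groups compared *Sox9* (-0.31, adjusted p = 0.0268) and *Cldn4* (adjusted p = 0.0208) did. *Cldn4*, with 26 counts in all in rescue WT and 3 in rescue *Cxcl5*-/-, was kept by the filter through rescue WT. It therefore had to differ, and no conclusion is drawn from its call. *Gata6* was filtered out as too low.

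All 4 keratins were higher in *Hif1a*OE *Cxcl5*-/- than in rescue *Cxcl5*-/-, although *Krt19* stayed under 1 CPM. Against rescue *Cxcl5*-/-, 4 members rose and 2 fell in *Hif1a*OE *Cxcl5*-/-, where 35.5% of genes changed (20.5% up, 15.0% down). The median log2 fold change was 1.02 over members and 0.16 over all genes. The members' median rests in part on *Cldn4* (0.89), which had few counts in both groups. Leaving out 1 sample moved *Cldn4* from -3.70 to 4.63, so no conclusion is drawn from this median. *Krt18* reached 373, 349 and 314 CPM (log2 fold change 1.96 ± 0.11, adjusted p = 4.59e-07, edgeR) and *Krt8* 408, 407 and 345 CPM (1.15 ± 0.11, adjusted p = 1.03e-05, edgeR), each above both *Cxcl5*-/- libraries. Against rescue WT neither passed, although *Krt8* lay below both WT libraries: *Krt18* differed by -0.06 ± 0.10 and *Krt8* by -0.29 ± 0.10 (adjusted p = 0.701 and 0.0617, edgeR). For *Krt8* this depended on the processing: it passed as lower than in rescue WT by DESeq2 (-0.42, adjusted p = 0.000269), with DESeq2's size factors (-0.43, adjusted p = 0.0115), library totals (-0.47, adjusted p = 0.00396) or at least 10 counts in every sample (-0.44, adjusted p = 0.00349), and without *Hif1a*OE replicate 2 or *Myc*OE replicate 3 (adjusted p = 0.0496 and 0.0418). *Krt7* also rose, at 38.5, 20.8 and 27.3 CPM against 1.33 and 1.81 (4.20 ± 0.31, adjusted p = 2.38e-06, edgeR), which also stood above rescue WT by 4.45 ± 0.32 and above each library of the other 3 rescue groups. *Krt19* came only to 0.322 ± 0.0716 CPM, with 13, 18 and 22 counts; this was 10.5 times rescue *Cxcl5*-/- (exact 95% interval 3.41 to 52.7) and below rescue WT, with a log2 fold change of -4.92 ± 0.39.

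*Sox9* fell with *Hif1a* from 29.4 ± 1.01 to 16.6 ± 2.17 CPM (-0.83 ± 0.17, adjusted p = 0.00235, edgeR) and *Pdx1* from 40.1 ± 0.281 to 28.7 ± 4.34 CPM (-0.48 ± 0.14, adjusted p = 0.0161, edgeR). The call of *Pdx1* was lost without rescue *Cxcl5*-/- replicate 1 or 2 or *Hif1a*OE replicate 1 (adjusted p from 0.05 to 0.0928). It stayed above rescue WT, by 0.85 ± 0.14 (adjusted p = 0.00169, edgeR).

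With *Myc*, the keratin pair did not differ from *Cxcl5*-/- cells beyond the spread of the samples. Of 8 members, 2 passed against rescue *Cxcl5*-/-, both higher (2 also at an unadjusted p under 0.05 and 2 by DESeq2), where 39.6% of genes changed (21.6% up, 18.0% down). *Krt8* was at 199, 191 and 166 CPM (0.09 ± 0.10, adjusted p = 0.519, edgeR) and *Krt18* at 84.9, 87.1 and 72.7 CPM (-0.13 ± 0.10, adjusted p = 0.36, edgeR), both overlapping *Cxcl5*-/-. *Krt7* rose to 2.90, 3.37 and 4.19 CPM (1.15 ± 0.29, adjusted p = 0.00789, edgeR), a call lost without rescue *Cxcl5*-/- replicate 1 (adjusted p = 0.0776), and *Krt19* rose to 0.529, 0.826 and 0.776 CPM, 23.2 times *Cxcl5*-/- (exact 95% interval 7.72 to 114). This comparison depended on scaling: with library totals in place of TMM the median of all genes went from 0.11 to -0.11, *Krt8*, *Krt18*, *Pdx1* and *Sox9* passed as lower (-0.25, -0.46, -0.57 and -0.65) and *Krt7* no longer passed. *Sox9* also passed as lower without *Myc*OE replicate 2 (-0.48, adjusted p = 0.0307).

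Set directly against *Hif1a*OE *Cxcl5*-/-, where 19.3% of genes changed (9.54% up, 9.73% down), *Myc*OE *Cxcl5*-/- had lower *Krt8* (-1.06 ± 0.09), *Krt18* (-2.08 ± 0.10) and *Krt7* (-3.04 ± 0.24), with no overlap and adjusted p from 1.35e-07 to 1.36e-05 by edgeR. *Sox9* was higher by 0.52 ± 0.15 (adjusted p = 0.0353, edgeR), a call lost without *Hif1a*OE replicate 1 or 2 or *Myc*OE replicate 2 or 3 (adjusted p from 0.068 to 0.134), with library totals (0.168), without a filter (0.0913) and with only the groups compared (0.0554). Against rescue WT, 4 of 8 members passed for *Hif1a*OE *Cxcl5*-/- (24.2% of all genes, 13.9% up and 10.3% down) and 6 for *Myc*OE *Cxcl5*-/- (31.8%, 17.1% up and 14.7% down). *Krt8* and *Krt18* were among the latter, at -1.35 ± 0.10 and -2.14 ± 0.10, and *Sox9* (-0.59 ± 0.17) lost its call there without rescue WT replicate 2 or *Myc*OE replicate 1 or 3 (adjusted p from 0.0506 to 0.15) and without a filter (0.0641). Since these comparisons share control libraries, they are not independent of each other.

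With conditioned media, none of the 6 members tested passed. By edgeR, 0 members passed in M1-CM against Ctrl (0.0156% of 19207 genes), M0-CM against Ctrl (0%) or M1-CM against M0-CM (0.0156%), 0 had an unadjusted p under 0.05, and the DESeq2 Wald test called 0. The spread within groups was wide. *Krt8* was at 227, 410 and 361 CPM in Ctrl, 244, 451 and 330 in M0-CM and 245, 163 and 313 in M1-CM, and *Krt18* at 53.3 ± 17.6, 73.7 ± 23.1 and 48.0 ± 18.6 CPM. *Pdx1* was at 20.1 ± 7.36, 18.4 ± 0.613 and 22.9 ± 4.31 CPM, and *Sox9* ran from 4.05 to 21.5 CPM over the 9 libraries. *Cxcl5* itself rose with M1-CM, to 682 from 101 CPM.

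These spheroids were WT cells in 3D, like 3D WT and rescue WT, yet *Krt7* had 0 counts in 7 of the 9 libraries and *Krt19* had at most 60. The 3 sets of WT spheroids therefore had *Krt19* means of 0.0522 CPM in Ctrl, 43.7 in 3D WT and 9.87 in rescue WT. Their media and tables differed, and no test between them was made.

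The composition of the keratins also varied between groups. Per kilobase, *Krt18* stood to *Krt8* as 0.721 ± 0.0541 in 2D WT, 0.656 ± 0.0227 in 2D *Cxcl5*-/-, 0.835 ± 0.0497 in 3D WT and 0.542 ± 0.010 in the libraries labelled 3D *Cxcl5*-/-, so 3D WT lay above and 3D *Cxcl5*-/- below each library of both 2D groups. In the rescue table the ratio was 1.04 ± 0.0173 in WT, 0.695 ± 0.0298 in *Cxcl5*-/-, 1.22 ± 0.0438 with *Hif1a* and 0.599 ± 0.0199 with *Myc*, with no overlap between any of the 4 groups. In the conditioned-medium table it ran from 0.200 to 0.309. *Krt19* gave 4.23% of the summed level of the 4 keratins in 3D WT and 1.07% in rescue WT, and *Krt7* gave 0.925% in *Hif1a*OE *Cxcl5*-/-. The share of *Krt7* depends on the length used: with the longest coding transcript in place of all exons it was 1.58%.

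**Figure D4:**
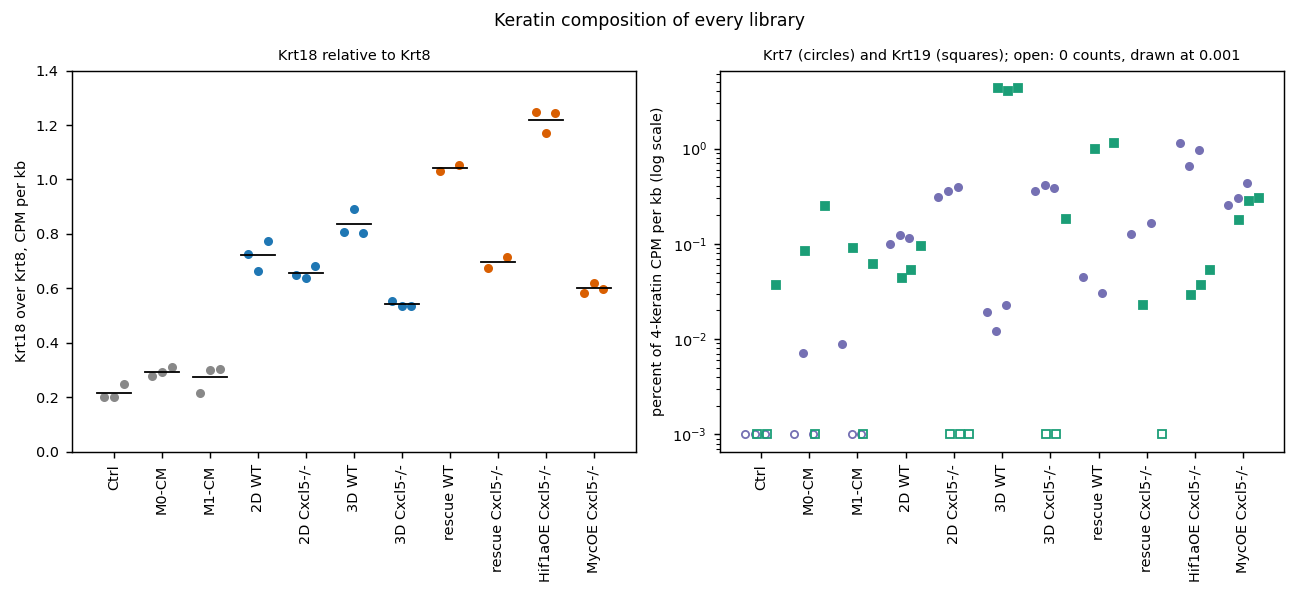
Left, the ratio of *Krt18* to *Krt8* in each library, both as CPM per kb of exon, with a black bar at the group mean; right, the percent of the summed CPM per kb of *Krt7*, *Krt8*, *Krt18* and *Krt19* that comes from *Krt7* (circles) and *Krt19* (squares), on a log axis. The ratio is highest in *Hif1a*OE *Cxcl5*-/- at 1.17 to 1.25, and the squares are highest in 3D WT at 4.03 to 4.33%.

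Other genes of the duct and epithelial program were read from lists, whose counts stand beside the shares of all genes that changed: 44.3% for 3D WT against 2D WT, 45.0% for 3D *Cxcl5*-/- against 3D WT, 41.9% for rescue *Cxcl5*-/- against rescue WT, 35.5% with *Hif1a* and 39.6% with *Myc*. Of 25 genes of duct and duct progenitor cells, 8 were tested in the 2D and 3D table. In 3D WT against 2D WT 5 passed, each higher, with a median log2 fold change of 0.73 against 0.00 over all genes; they included *Bicc1* (4.09), *Tspan8* (1.74) and *Onecut2* (1.00), a transcription factor of pancreatic development. In the libraries labelled 3D *Cxcl5*-/- against 3D WT 4 rose and 2 fell (median 0.54 against -0.04), among them *Onecut2* (1.24) and *Glis3* (1.07). In rescue *Cxcl5*-/- against rescue WT 6 of 18 tested rose and 6 fell (median -0.77 against -0.30), with *Tspan8* at 3.59 and *Onecut2* at 3.21. With *Hif1a* 1 rose and 5 fell (median 0.32 against 0.16), and with *Myc* 1 rose and 5 fell (median -0.04 against 0.11), with *Tspan8* at -3.24 and -4.25 in turn and *Onecut2* at -3.09 with *Myc*. Of the 25 genes, 2 were at the floor in rescue WT and 13 in rescue *Cxcl5*-/-. Since a gene kept by the filter through low counts in rescue WT had to differ, the rescue counts and medians can be set in part by the filter.

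Of 26 epithelial junction and identity genes, 11 were tested in the 2D and 3D table and 21 in the rescue table. In 3D WT against 2D WT 7 rose and 1 fell (median 2.21 against 0.00 over all genes), in the libraries labelled 3D *Cxcl5*-/- against 3D WT 3 rose and 3 fell (median -1.05 against -0.04), and in rescue *Cxcl5*-/- against rescue WT 3 rose and 8 fell (median -2.26 against -0.30). With *Hif1a* 5 rose and 2 fell (median 1.69 against 0.16), and with *Myc* 5 rose and 3 fell (median 2.05 against 0.11), beside the 35.5% and 39.6% of all genes that changed there. Of the 26 genes, 4 were expressed and 2 at the floor in rescue WT, while 14 were at the floor in rescue *Cxcl5*-/-. A gene kept by the filter through low counts in rescue WT had to differ from that floor. The rescue counts and medians of this list can thus be set in part by the filter. *Cldn1*, a claudin of tight junctions, measured 3.68, 3.05 and 2.88 CPM in 2D WT libraries, against 18.3, 15.0 and 16.8 for 3D WT, and at most 0.0611 in the libraries labelled 3D *Cxcl5*-/- (-8.72 ± 0.48 against 3D WT). It had 377 and 543 counts in rescue WT, 2 and 0 in rescue *Cxcl5*-/-, 227, 243 and 224 with *Hif1a* and 30, 19 and 20 with *Myc*. So *Cldn1* was high in the same WT spheroids as *Krt19*, but reached 4.05 to 4.45 CPM with *Hif1a* where *Krt19* stayed under 0.4 CPM. *Jup*, which encodes the junction protein plakoglobin, went the opposite way, from 54.1 and 44.1 CPM in rescue WT to 190 and 192 in rescue *Cxcl5*-/- (1.96 ± 0.11) and back to 56.2, 59.3 and 60.7 with *Hif1a* (-1.70 ± 0.10).

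The mesenchymal genes moved in both directions. In 3D WT against 2D WT 10 of 17 tested rose and 3 fell (median 0.66 against 0.00 over all genes, of which 44.3% changed), led by the matrix proteoglycan genes *Dcn* (6.65) and *Lum* (6.49), and in the libraries labelled 3D *Cxcl5*-/- against 3D WT 6 rose and 9 fell (median -0.83 against -0.04, with 45.0% of all genes changed), with *Pdgfra*, a receptor of mesenchymal cells, at 3.33 and *Vim* at -2.44. In rescue *Cxcl5*-/- against rescue WT 9 of 18 tested rose and 4 fell (median 0.33 against -0.30, with 41.9% of all genes changed). *Vim* went against that median there and fell with *Krt8* and *Krt18* (-2.59 ± 0.10). Acinar and endocrine genes were low: 3 of 16 and 2 of 13 were tested in the 2D and 3D table, and their summed levels stayed under 3 CPM per library. An exception in the rescue table was *Ctrb1*, the acinar enzyme precursor chymotrypsinogen, with 423 and 637 counts in *Cxcl5*-/- and 0 in both WT libraries. Among the further keratins, *Krt80* passed in step with *Krt8* and *Krt18* in 3D *Cxcl5*-/- against WT (-0.69 ± 0.13), rescue *Cxcl5*-/- against WT (-1.23 ± 0.13) and with *Hif1a* (1.15 ± 0.12), and against them in 3D WT against 2D WT (-0.46 ± 0.13). It also fell with *Myc* (-0.97 ± 0.12). The 10 macrophage and blood markers summed to 1.97 to 2.75 CPM in 2D WT, 7.62 to 8.99 in 3D WT and 15.7 to 25.8 in the libraries labelled 3D *Cxcl5*-/-, and the 10 basal or squamous markers to 9.39 to 14.6, 30.6 to 34.6 and 30.3 to 48.2 CPM. The part of these lists in the member levels was not tested.

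Likeness of pattern was measured as the root mean square difference between log2 levels in the 11 groups, centred within each table, over 18384 genes tested in all 3 tables. For *Krt18*, *Krt8* ranked 5th, at 0.302, where the median gene was at 0.924. The genes nearest to *Krt18* were *Cav2* (0.212), *Rasa4* (0.235) and *Cav1* (0.277), of which *Cav1* and *Cav2* encode caveolins. *Tmem171* (0.151), *Timp1* (0.157), an inhibitor of metalloproteinases, and *Arhgap22* (0.169) came nearest to *Krt8*, and *Ssbp3* (0.104) and *Jade2* (0.153) were near to *Pdx1*. *Sox9* lay nearest to *1700034I23Rik* (0.20), *Ccdc30* (0.211) and *Odad4* (0.228), and *Muc1* to *Irf9* (0.249). For *Krt19* the nearest gene, *Ctsf*, was at 1.06, where the median gene was at 2.95. The group means of *Krt19* spanned up to 10.4 log2 units within a table, and such distances grow with that span. These are descriptions over shared libraries, without a test.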

How the data were processed

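Panc02 RNA was measured in 31 samples. The authors made stranded total RNA libraries, sequenced read pairs, used HISAT2 for alignment to GRCm38, and deposited 3 tables of unnormalized counts per gene made with StringTie; the annotation release and the step from StringTie to counts are not given in the sources used here. The labels of the rescue samples carry running cell line names, where the study's methods name Panc02.

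From these counts, edgeR 4.0.16 (R 4.3.3) gave TMM scaling, the filterByExpr filter by group, and the quasi-likelihood test (two-sided) fitted over every group of a table, with p-values adjusted by Benjamini-Hochberg and called at 0.05; the SE is the log2 fold change over the square root of F. The filter kept 19207 of 55487, 21367 of 56980 and 28730 of 56941 genes, with 6, 7 and 8 of the 9 members; a member kept through the group where it is high had to differ. CPM used TMM-scaled library sizes, with a floor of 3 counts per library and log2 levels with a prior count of 2. Exact binomial (Clopper-Pearson) intervals at 95% and floors cover counting error only. Exon lengths and positions came from GENCODE M21, promoter sequences from RefSeq (GRCm38.p6). In bulk RNA, fewer cells of a type and less RNA per cell cannot be told apart.

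The members and gene lists were chosen with earlier results of these data known. All members were named; from each list, at most 3 genes past the threshold with the largest fold among those whose mean count reached 50 were named, plus *Cdh1*, *Epcam*, *Vim*, *Krt5*, *Krt14*, *Krt17*, *Cxcl5*, *Hif1a* and *Myc*. *Krt10*, *Krt222*, and the levels of *Cldn1* and *Jup* across groups were added after values were seen. Some genes that this rule or the measure of likeness names are not reported here. *Krt8* shares sequence with the pseudogene *Krt8-ps* (98.6% identity over 941 bases, at most 352 counts), and antisense genes overlap exons of *Krt7* and *Krt8* by 77 and 101 bases; whether counting used strand is not given in the sources used here.

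Alternatives tried were library totals or DESeq2's size factors for scaling, the Wald test of DESeq2 1.42.0, a filter of 10 counts in each sample or none, fits restricted to the compared groups, a replicate block, an absolute log2 fold change above 1, each sample left out, and the fit without the libraries labelled 3D *Cxcl5*-/-. The share of keratins by coding length was added after seeing the data. The fitting code was tested on simulated data. Python 3.11.15, pandas 2.3.3, numpy 2.4.6, matplotlib 3.10.9 and BLAST 2.17.0 were used.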

Additional observations from a re-analysis of the deposited data

Results flagged for a closer look

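The effect of *Cxcl5* loss on 4 members differed between 3D and 2D culture by the test of the difference itself (edgeR's quasi-likelihood test of the interaction, Benjamini-Hochberg adjusted). On the log2 scale, the knockout effect in 3D minus that in 2D was -1.70 ± 0.14 for *Krt8* (adjusted p = 3.63e-06) and -2.18 ± 0.14 for *Krt18* (adjusted p = 4.85e-07). It was 1.55 ± 0.40 for *Sox9* (adjusted p = 0.0114) and 0.63 ± 0.16 for *Pdx1* (adjusted p = 0.0094). All 4 rest on the libraries labelled 3D *Cxcl5*-/-, in which *Cxcl5* RNA was higher than in 3D WT. There *Hif1a* (160 against 369 CPM) and *Myc* (10.4 against 35 CPM) were lower than in 3D WT, as in the rescue table. No cause was tested. With a limit of an absolute log2 fold change above 1, *Pdx1* is not called. Groups of 3 or fewer samples were not searched for single samples that stand apart.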

How the results depend on the processing

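Of 101 results for a member in a comparison, 52 were called, and none of these 52 changed direction under any alternative run. Counts of members called moved by over 1.5 times in 4 cases apart from left-out samples. With an absolute log2 fold change above 1, the count went from 7 to 4 for 3D WT against 2D WT and from 4 to 2 for 2D *Cxcl5*-/- against 2D WT. For *Myc*OE *Cxcl5*-/- against rescue *Cxcl5*-/- it went from 2 to 5 with library totals and to 1 with at least 10 counts in every sample, where 6 members were left to test. Leaving out 1 sample gave 6 to 7 members for 3D WT against 2D WT, 2 to 5 for 2D *Cxcl5*-/- against 2D WT, 5 to 6 for 3D *Cxcl5*-/- against 3D WT and against 2D *Cxcl5*-/-, and 4 for the interaction. In the rescue table it gave 4 for *Cxcl5*-/- against WT, 5 to 6 for *Hif1a*OE and 1 to 3 for *Myc*OE against *Cxcl5*-/-, 3 to 5 for *Myc*OE against *Hif1a*OE, and 4 to 6 and 5 to 7 for *Hif1a*OE and *Myc*OE against WT. A lone sample left in a group was assumed to vary like the others.

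Signs changed only where no call was made. With library totals *Krt8* went to -0.028 for M0-CM against Ctrl, *Muc1* to 0.11 for 3D *Cxcl5*-/- against 3D WT, and for *Myc*OE *Cxcl5*-/- *Krt8* to -0.25 and *Muc1* to -0.30 against rescue *Cxcl5*-/-, and *Muc1* to -0.11 against rescue WT. Without a filter *Sox9* went to -0.0058 for M1-CM against M0-CM. *Muc1* went to -0.037 with at least 10 counts in every sample and to -0.0083 with the replicate block for *Myc*OE against rescue *Cxcl5*-/-, and *Krt18* to 0.011 with the block for *Hif1a*OE *Cxcl5*-/- against rescue WT. The cause was not tested. Leaving out 1 sample changed signs only in the following results, none of them called. For M1-CM against Ctrl the log2 fold change then ran from -0.064 to 0.48 for *Pdx1*, -0.43 to 0.18 for *Muc1*, -0.42 to 0.87 for *Sox9* and -0.52 to 0.031 for *Krt18*. For M0-CM against Ctrl it ran from -0.21 to 0.23 for *Krt8*, -0.090 to 0.87 for *Sox9* and -0.38 to 0.14 for *Pdx1*, and for M1-CM against M0-CM from -0.72 to 0.39 for *Sox9* and -1.93 to 0.40 for *Krt19*. In the rescue table it ran from -0.12 to 0.0025 for *Krt18* (*Hif1a*OE against WT), -3.70 to 4.63 for *Cldn4* (*Hif1a*OE against *Cxcl5*-/-) and -0.052 to 0.14 for *Muc1* (*Myc*OE against *Cxcl5*-/-).

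Library totals moved the median log2 fold change of all genes from 0.00 to -0.21 for 3D WT against 2D WT and from -0.04 to 0.35 for 3D *Cxcl5*-/- against 3D WT. The split of genes higher and lower then went from 4752 and 4707 to 3563 and 6712, and from 4218 and 5397 to 7671 and 2445. DESeq2 called 105, 22 and 34 genes in the conditioned-medium comparisons where edgeR called 3, 0 and 3. Limiting the log2 fold change to above 1 cut the genes called, for instance from 9615 to 3771 for 3D *Cxcl5*-/- against 3D WT.

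Replicate numbers shared across groups did not pair the samples on average: deviations of same-numbered samples correlated at a mean of 0.037, 0.025 and 0.004 in the 3 tables. Single pairs ran from -0.236 to 0.359 with conditioned media, -0.096 to 0.180 in the 2D and 3D table and -0.025 to 0.050 in the rescue table. With the replicate block the number of members called was within 1.5 times the main count in each comparison, and *Sox9* in 2D *Cxcl5*-/- against 2D WT (adjusted p = 0.0389) and *Krt19* in *Myc*OE against *Hif1a*OE *Cxcl5*-/- (adjusted p = 0.0442) passed. The fit of only the groups compared was not run for the interaction. At these depths 3 counts are 0.0381 to 0.0701 CPM, so *Gata6* and *Cldn4* at 0 are not detectable rather than absent.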
